A study of Homo sapiens with 6 samples.

Results

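Iron enters most cells bound to transferrin, and TFRC, transferrin receptor 1, carries it from the cell surface into endosomes. There STEAP3 reduces the iron and SLC11A2 (DMT1) moves it into the cytosol, ferritin shells of heavy (FTH1) and light (FTL) chains store it, and SLC40A1 (ferroportin) exports it. When iron is scarce, the iron regulatory proteins encoded by ACO1 (IRP1) and IREB2 (IRP2) bind hairpins called iron-responsive elements, which protects the TFRC mRNA from decay and blocks translation of the ferritin and ferroportin mRNAs. FBXL5, a ubiquitin ligase subunit, marks the regulatory proteins for degradation when iron is plentiful, and NCOA4 delivers ferritin to the lysosome to free its iron.

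Described here are these 10 iron handling genes, of 57281 genes listed in the deposited table. They were chosen by name with the results of this very comparison known, so their differences are given as descriptions, without a p-value, and their counts support nothing beyond themselves. The study asked how silymarin, a flavonolignan extract of milk thistle seed, changes the transcriptome of HaCaT cells placed in a wound-closure setting. HaCaT is a human keratinocyte line that became immortal spontaneously, and it is a single line, so its cultures stand for 1 genetic background. All 6 cultures were kept for 24 h with 10 ng/ml of TGF-β1, a cytokine that drives epithelial cells towards a migratory state. In 3 of them (the TGF-β1 group) nothing else is named, and the 3 others (the silymarin group) also received silymarin at 31.25 µg/ml. There was no culture without TGF-β1, so every value below is a level in, or a difference between, TGF-β1-treated cells. The series text calls the replicates biological but does not say what separates them, and a standard deviation here (SD, n = 3) is the spread between those cultures.

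Values are normalized read counts: reads per gene divided by 1 factor per library. The libraries held between 20240542 and 30279391 reads, and of all genes 17296 reached 10 normalized counts in at least 3 libraries and were fitted with limma on log2(value + 1). Differences are silymarin minus TGF-β1 in log2 units with their standard error (SE), and a gene is called changed where the Benjamini-Hochberg adjusted p over all fitted genes is under 0.05. By that rule 34.2% of all fitted genes were called, 16.0% higher and 18.2% lower with silymarin. Replicate 2 of the silymarin group had the fewest reads, and its deviation from its group followed GC content across 16828 genes (Spearman rho -0.56, a description). The 8 keratinocyte markers examined were abundant in every library, summing to 369178 to 375244 in the TGF-β1 group and 231139 to 259895 in the silymarin group, with 7 of the 8 called lower. Of the erythroid markers HBB and GATA1 were listed at 0 in every library, as were the macrophage receptor CD163 and the melanocyte genes TYR and SOX10. PTPRC, the pan-leucocyte marker, reached at most 2.65, and the fibroblast gene DCN was at 0. Other genes of those lists were present: EPOR at 90.5 to 125 normalized counts, CSF1R at 25.6 to 41.6 and PMEL at 61.2 to 82.1. CD14 was called higher (10.6 to 14.5 in the TGF-β1 group, 19.1 to 29.4 with silymarin). COL1A1, from the fibroblast list, was called lower (3317.7 to 3502 against 1713 to 2045), with COL1A2 at most 5.06. What part the shifts in these marker genes have in the results was not tested. In bulk RNA, fewer cells of a kind and less RNA per cell cannot be told apart.

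The hairpins that define this regulatory circuit are written in the mRNAs themselves. A search of 1 transcript for each of 19659 coding genes (GENCODE 29, build GRCh38) looked, on the transcript strand, for an unpaired C, 5 bases of stem, the loop CAGTGN or CAGAGN, and 5 bases that pair with the stem, G with T allowed. The sequences below are 30-base windows, 5′ to 3′, with the loop in capitals, and are shown because TFRC, the member with the largest difference, carries 5 of them in its 3′ UTR while the ferritin and ferroportin mRNAs carry 1 each in the 5′ UTR.
TFRC element 1: atttatcagtgaCAGAGTtcactataaatg
TFRC element 2: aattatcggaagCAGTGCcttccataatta
TFRC element 3: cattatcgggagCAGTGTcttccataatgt
TFRC element 4: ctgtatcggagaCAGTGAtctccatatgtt
TFRC element 5: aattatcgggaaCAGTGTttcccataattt
FTH1 element: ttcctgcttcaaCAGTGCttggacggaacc
FTL element: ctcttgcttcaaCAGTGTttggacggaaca
SLC40A1 element: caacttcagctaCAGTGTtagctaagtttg

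The TFRC elements lie on the minus strand of chromosome 3, in the order above at chr3:196051028-196051057, chr3:196050978-196051007, chr3:196050574-196050603, chr3:196050509-196050538 and chr3:196050462-196050491. In the TFRC-201 transcript of 5111 bases the unpaired C of each, which lies inside the window, is at bases 3344, 3394, 3798, 3863 and 3910. They form a pair, a gap, and then a group of 3. Compared base by base, the 10 pairs among them share 16 to 25 of 30 bases, and element 1 is the one with the CAGAG loop. The FTH1 element (chr11:61967573-61967602, minus strand) and the FTL element (chr19:48965335-48965364, plus strand) share 26 of 30 bases with each other. The SLC40A1 element lies at chr2:189580660-189580689 on the minus strand.

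Such matches were uncommon. Of the genes searched, 275 (1.40%) had at least 1 match in a UTR, 3 (0.0153%) had 3 or more, and TFRC was the 1 gene with 5. STEAP3 had a match in its 3′ UTR (chr2:119263771-119263800, plus strand), which is a match of letters only. The transcripts used for SLC11A2, IREB2, ACO1, NCOA4 and FBXL5 held no match, which says only that these letters are not in those transcripts. Among genes outside the 10 that carry a match, of 35 fitted genes with a 5′ UTR match 2 were called higher and 6 lower (22.9% called, median log2 difference 0.0076), and of 161 with a 3′ UTR match 24 were called higher and 34 lower (36.0%, median -0.014), beside 34.2% called and a median of 0.0044 over all fitted genes. This count was chosen after the data were seen.

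TFRC (ENSG00000072274.8, chr3:196027183-196082189, minus strand) had 11834, 10073 and 11143 normalized counts in the TGF-β1 cultures. In the silymarin cultures it had 45103, 50378 and 48009. Every silymarin library was therefore far above every TGF-β1 library. The mean went from 11017 ± 887 to 47830 ± 2642 (SD, n = 3 each), a log2 difference of 2.12 (SE 0.062) or 4.34-fold. Ranked by that difference TFRC was number 19 of 17296 fitted genes, and ranked by level it moved from place 288 to place 32 in the table. The receptor's mRNA made up 0.0418% of all counts without silymarin and 0.184% with it. Under 16 alternative settings of scaling, filter, model and libraries the difference stayed between 2.06 and 2.17, and TFRC was called higher in 16 of 16.

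**Figure D1:**
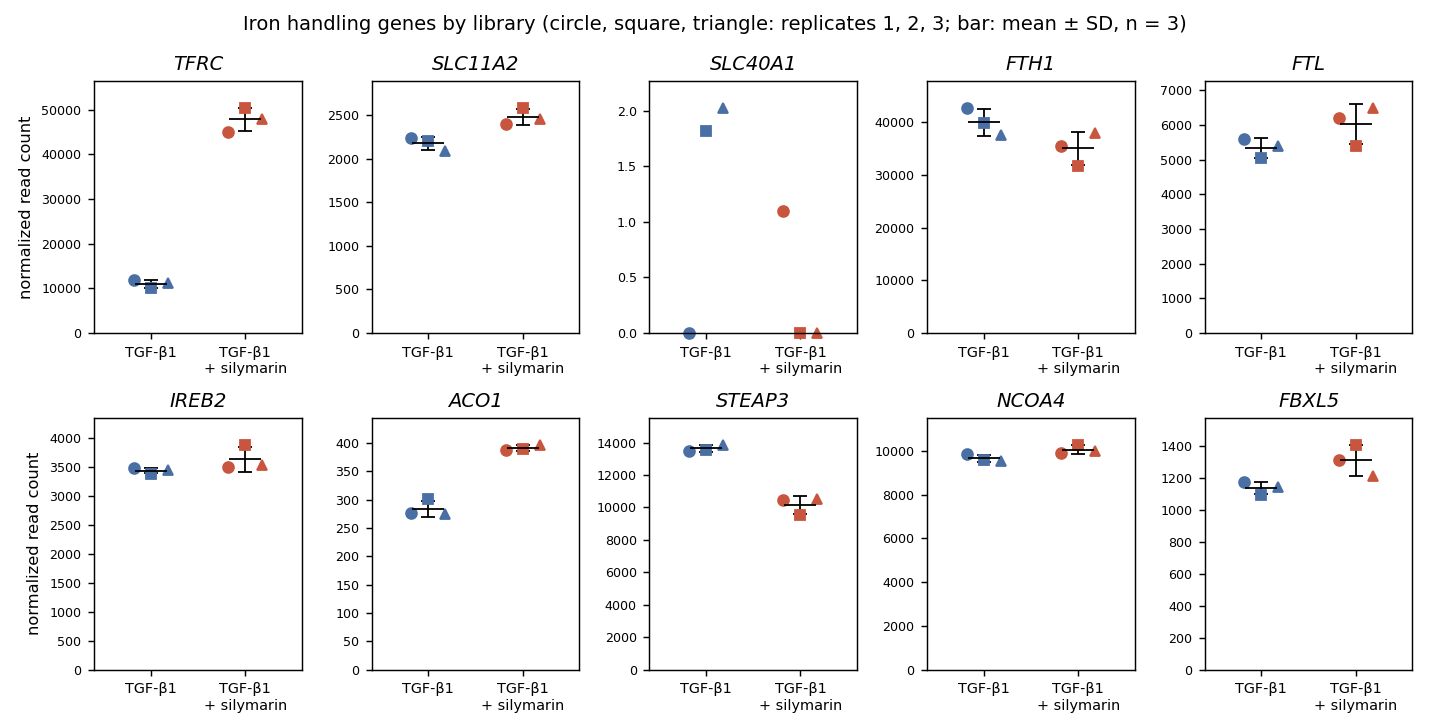
Normalized read counts (vertical axes, each from 0 and on its own scale) of the 10 iron handling genes in the 3 TGF-β1 cultures (blue) and the 3 cultures with TGF-β1 and silymarin (red); symbols mark replicates 1, 2 and 3, and the black bars give mean ± SD, left out for SLC40A1, whose values are too low. TFRC is the gene with the widest gap, from 10073 to 11834 against 45103 to 50378, and the FTH1 and FTL groups overlap.

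STEAP3 and SLC11A2 act on the iron that the receptor delivers to the endosome, and they differed in opposite directions. STEAP3, the endosomal ferrireductase (ENSG00000115107.15, chr2:119223831-119265652, plus strand), had 13471, 13569 and 13865 normalized counts in the TGF-β1 group. With silymarin it had 10434, 9536 and 10546. All silymarin libraries were below all TGF-β1 libraries. The mean went from 13635 ± 205 to 10172 ± 553, a log2 difference of -0.42 (SE 0.050) or -25.4%, and STEAP3 was called lower in 16 of 16 alternatives. The lowest of the 3 silymarin values belonged to replicate 2, which differed by -9.09% from the mean of the other silymarin libraries. Without replicate 2 the log2 difference was -0.38.

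SLC11A2, the ferrous iron transporter (ENSG00000110911.10, chr12:50979401-51028566, minus strand), had 2232, 2203 and 2090 normalized counts in the TGF-β1 group. The silymarin libraries held 2401, 2581 and 2459. The groups did not overlap, but the gap between the nearest libraries was small beside that of TFRC. The means were 2175 ± 74.8 and 2480 ± 91.9, a log2 difference of 0.19 (SE 0.052). It was called higher here and in 13 of 16 alternatives; leaving out TGF-β1 replicate 3 ended the call (log2 difference 0.16), as did the count models edgeR (0.16) and DESeq2 (0.16), from which that same library was absent.

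SLC40A1, the exporter (ENSG00000138449.6, chr2:189560579-189583758, minus strand), was at the edge of detection. The TGF-β1 libraries held 0, 2 and 2 reads of it and the silymarin libraries 1, 0 and 0, which is 4 against 1 in all. Reads were recovered from the normalized values, and those of TGF-β1 replicate 3 were not accepted for the count models. A count of 0 allows up to 3 counts, between 0.0991 and 0.148 CPM in these libraries, and this covers counting error alone. The gene was not fitted, and no fold is given, because neither group stood clear of that limit.

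The ferritin chains store the iron, and per kilobase their mRNAs were the most abundant of the 10 in the TGF-β1 group. FTH1, the heavy chain with ferroxidase activity (ENSG00000167996.11, chr11:61959718-61967660, minus strand), had 42667, 39763 and 37568 normalized counts in the TGF-β1 group. Silymarin-treated cultures gave 35553, 31591 and 37908. The highest silymarin library was above the lowest TGF-β1 library, so the groups overlapped. The means were 39999.6 ± 2558 and 35018 ± 3192, a log2 difference of -0.19 (SE 0.067) or -12.5%. FTH1 was called lower here and in 12 of 16 alternatives; it was not called with no filter on low values, nor with TGF-β1 replicate 1 (-0.15), TGF-β1 replicate 2 (-0.20) or silymarin replicate 1 (-0.21) left out. Without silymarin replicate 2 the log2 difference was -0.12.

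FTL, the light chain that helps the iron core form (ENSG00000087086.9, chr19:48965301-48966878, plus strand), had 5611, 5042 and 5400 normalized counts in the TGF-β1 group. With silymarin the values were 6218, 5385 and 6492. Replicate 2 of the silymarin group fell inside the TGF-β1 range, and the other silymarin libraries lay above it. The means were 5351 ± 288 and 6032 ± 576, a log2 difference of 0.17 (SE 0.067) that was not called. It was called higher in 4 of 16 alternatives: library-size scaling, the replicate block, the GC and length correction, and without silymarin replicate 2 (0.25).

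The ferritin chains were also set against each other within each library. Per kilobase of transcript, the ratio of FTH1 to FTL was 5.43, 5.63 and 4.97 in the TGF-β1 cultures. It was 4.08, 4.19 and 4.17 in the silymarin cultures. The silymarin values lay close together and below every TGF-β1 value, with means of 5.35 ± 0.34 and 4.15 ± 0.0565. A ratio within a library shows unequal change of the chains and does not say which chain moved.

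Reads of the ferritin chains can also be assigned to near-identical copies elsewhere in the genome. The table lists 25 copies of FTH1, of which 8 averaged at least 10 normalized counts and 14 were at 0 in every library, and 16 copies of FTL, of which 2 averaged at least 10. The FTH1 copies summed to 7076, 6943 and 10072 in the TGF-β1 group and to 9774, 10186 and 6846 in the silymarin group, or 16.6 to 32.2% of the FTH1 count. Much of that spread came from FTH1P20, which is 97.8% identical to FTH1 over 548 bases: it had 2037, 2077 and 4409 in the TGF-β1 group and 4188, 4760 and 2109 in the silymarin group. Its high and low libraries did not follow the treatment. The high values lay in the libraries with the fewest reads, TGF-β1 replicate 3 and silymarin replicates 1 and 2 (20240542 to 25947162 reads). The low values lay in the libraries with the most (29050685 to 30279391 reads). FTH1P8 (98.1% identical over 513 bases) split the same way. It had 1610, 1496 and 1360 in the former and 1022, 979 and 852 in the latter. FTH1 itself was lowest in those with the fewest reads, at 37568, 35553 and 31591. The part of depth in this split was not tested. Read totals were recovered from the normalized values, and that of TGF-β1 replicate 3 (25947162) rests on a recovery not accepted for the count models.

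With the copies added to the parent gene, the picture of the heavy chain shifted. FTH1 with its copies had 49743, 46707 and 47640 in the TGF-β1 group and 45327, 41777 and 44754 in the silymarin group, so the groups no longer overlapped. The means were 48030 ± 1555 and 43953 ± 1906, but the log2 difference shrank to -0.13 (SE 0.050) and was not called. FTL with its copies had 6890, 6587 and 6690 in the TGF-β1 group and 7918, 6902 and 8020 in the silymarin group, with no overlap, and its log2 difference of 0.18 (SE 0.058) was called. How the counting treated reads that map to several copies is not given, so the split between parent and copies is uncertain. The log2 ratio of the chains differed by -0.36 without the copies and by -0.30 with them, with no overlap either way.

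**Figure D2:**
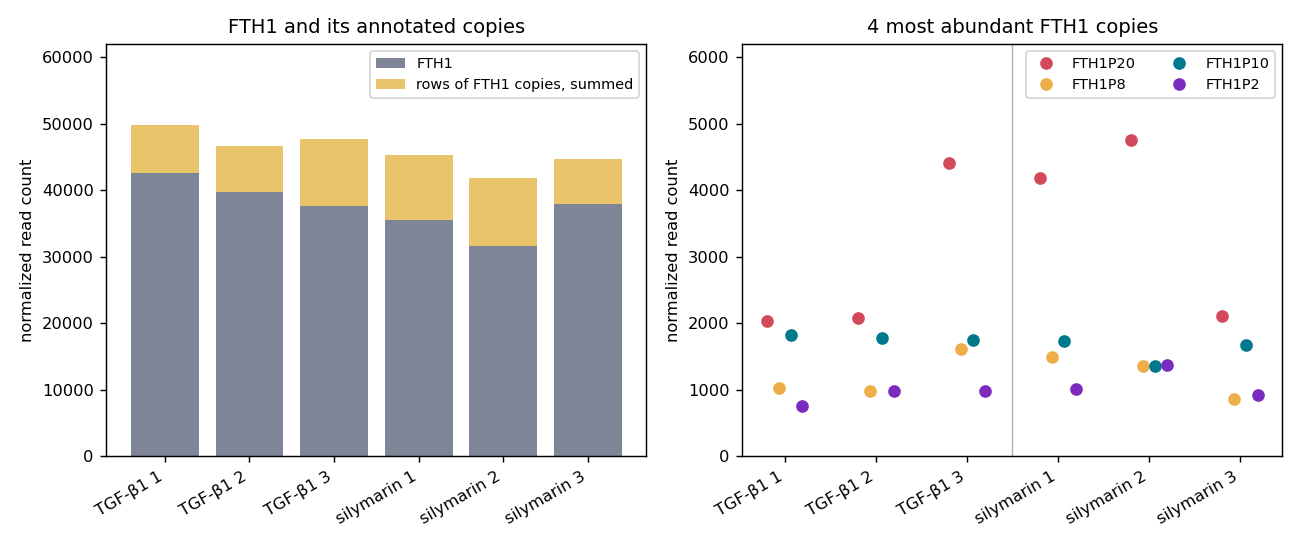
Left, normalized read counts of FTH1 (grey) with the summed rows of its annotated copies stacked on top (yellow), 1 bar per library; right, the 4 most abundant copies in each library, where the grey line divides the TGF-β1 from the silymarin cultures. FTH1P20 was near 2037 to 2109 in 3 libraries and 4188 to 4760 in the other 3, in both groups.

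NCOA4, the receptor that takes ferritin to the lysosome (ENSG00000138293.15, matched by symbol to chr10:46005088-46030714, minus strand), had 9842, 9595 and 9548 normalized counts in the TGF-β1 group. The 3 silymarin libraries gave 9905, 10278 and 9994. The groups came close without overlapping. The means were 9662 ± 158 and 10059 ± 194, a log2 difference of 0.06 (SE 0.044) that was not called, here or in any of the 15 alternatives that gave it a value.

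ACO1 and IREB2 encode the proteins that bind the elements above, and FBXL5 controls their amount. The 3 genes differed by unequal amounts. ACO1, which encodes cytosolic aconitase and IRP1 (ENSG00000122729.13, chr9:32384603-32454769, plus strand), had 277, 301 and 274 normalized counts in the TGF-β1 group. Silymarin libraries had 387, 390 and 397. All silymarin libraries were above all TGF-β1 libraries, and the silymarin values were nearly equal. The means were 284 ± 14.8 and 392 ± 5.14, a log2 difference of 0.46 (SE 0.077) or 1.38-fold, called in 16 of 16 alternatives. Its level was the lowest per kilobase of the 9 fitted genes.

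IREB2, which encodes IRP2 (ENSG00000136381.8, chr15:78437431-78501456, plus strand), had 3480, 3384 and 3444 normalized counts in the TGF-β1 group. With silymarin it had 3490, 3882 and 3526. The lowest silymarin library barely exceeded the highest TGF-β1 library, and replicate 2 stood above the rest. The means were 3436 ± 48.8 and 3633 ± 216, a log2 difference of 0.08 (SE 0.053), not called here or in any of 16 alternatives. Without silymarin replicate 2 the log2 difference was 0.03.

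FBXL5, the iron-sensing subunit of the ligase that degrades IRP2 (ENSG00000118564.10, chr4:15604539-15681679, minus strand), had 1173, 1097 and 1142 normalized counts in the TGF-β1 group. The silymarin libraries held 1315, 1409 and 1213. The groups did not overlap, and the silymarin libraries were the more spread. The means were 1137 ± 38.0 and 1313 ± 98.1, a log2 difference of 0.20 (SE 0.064). The gene was called higher here and in 11 of 16 alternatives; it was not called in edgeR (0.21) or DESeq2 (0.21), nor with TGF-β1 replicate 2 (0.18), TGF-β1 replicate 3 (0.21) or silymarin replicate 1 (0.20) left out. FAM200B lies on the opposite strand within its bounds with a mean of 590, and whether the counting used strand is not given in the sources used here. Reads of the pair may therefore not be fully separated.

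In all, 9 of the 10 genes were fitted and 6 were called: TFRC, ACO1, SLC11A2 and FBXL5 higher, and STEAP3 and FTH1 lower. Since the genes were selected on this comparison, the background of 34.2% called, 16.0% higher and 18.2% lower, stands beside that count and nothing is read from it. The groups did not overlap for 7 of the 9, with 6 higher and 1 lower, where over all fitted genes 47.1% did not overlap, 23.1% with silymarin higher and 24.1% with silymarin lower. The median log2 difference of the 9 was 0.17, beside 0.0044 over all fitted genes. TFRC stood alone in size: the next largest difference, of ACO1, was 0.46 against 2.12.

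**Figure D3:**
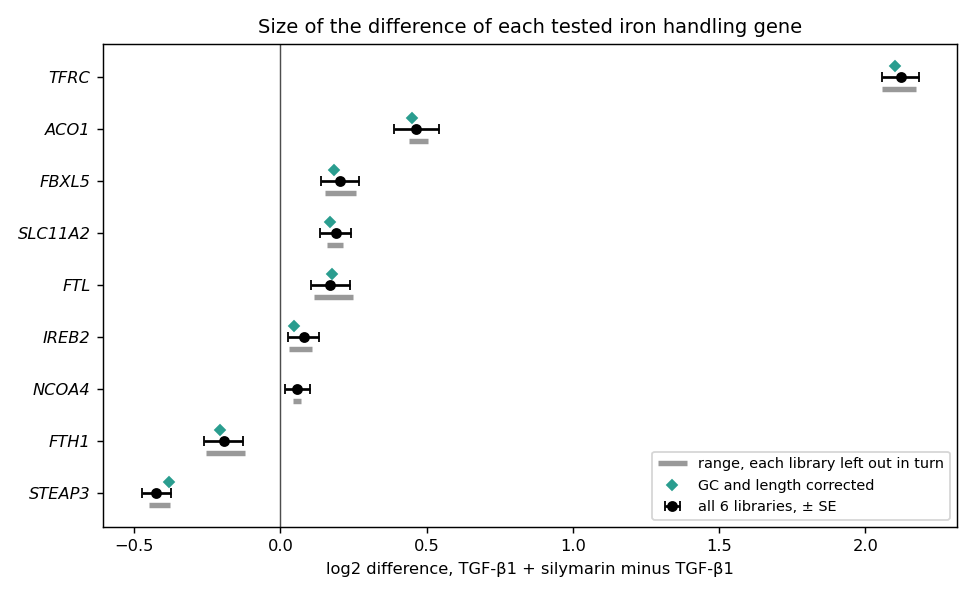
Log2 difference between silymarin and TGF-β1 cultures (horizontal axis) for the 9 fitted genes; black points with bars give the estimate from all 6 libraries ± SE, grey bars the range with each library left out in turn, green diamonds the estimate after correction for GC content and length (no value for NCOA4). TFRC sits at 2.12, ACO1 at 0.46 and STEAP3 at -0.42, and the other 6 lie between -0.19 and 0.20.

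Silymarin replicate 2, which deviates with GC content, was compared with the other silymarin libraries gene by gene. The members of low GC were above the mean of the other silymarin libraries in replicate 2: IREB2 (38.3% GC) by 10.6%, FBXL5 (40.5%) by 11.5%, TFRC (41.5%) by 8.21% and SLC11A2 (43.0%) by 6.21%. Those of higher GC were below it: FTH1 (50.1%) at -14.0%, FTL (56.3%) at -15.3% and STEAP3 (56.9%) at -9.09%. ACO1 (45.7%) was at -0.595% and NCOA4, which has no GC value, 3.30% above. The part of GC content in these offsets was not tested beyond the correction below. In size these offsets were larger than the difference between group means for FTH1 (-12.5%), FTL (12.7%) and IREB2 (5.73%). They were smaller than it for FBXL5 (15.4%) and SLC11A2 (14.0%), and far smaller for TFRC (334%). Each is the offset of 1 library. Without silymarin replicate 2 the log2 difference was 0.16 for SLC11A2 and 0.15 for FBXL5, beside 0.19 and 0.20 with it. After correction for GC content and length the log2 differences were 2.1 for TFRC, 0.45 for ACO1, -0.38 for STEAP3, -0.21 for FTH1, 0.18 for FTL, 0.18 for FBXL5, 0.17 for SLC11A2 and 0.05 for IREB2.

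Levels of different genes can be compared once divided by transcript length. In the TGF-β1 group the order was FTH1 with 32546 ± 2081 normalized counts per kilobase, FTL with 6094 ± 327, STEAP3 with 3199 ± 48.1, NCOA4 with 2722 ± 44.4 and TFRC with 2156 ± 174. IREB2 (541 ± 7.68), SLC11A2 (500 ± 17.2), FBXL5 (336 ± 11.2) and ACO1 (38.0 ± 1.98) followed. Each neighbour in that order was apart by more than its SD. In the silymarin group TFRC came second, with 9358 ± 517, after FTH1 (28493 ± 2597) and before FTL (6870 ± 656), and NCOA4 (2834 ± 54.8) stood before STEAP3 (2387 ± 130). The place of TFRC before FTL holds for the FTL row alone. Rows of FTL copies amounted to 27.3, 28.2 and 23.5% of the FTL count in silymarin replicates 1, 2 and 3. With those copies added the order of TFRC and FTL is not settled. IREB2 (572 ± 34.1) and SLC11A2 (570 ± 21.1) could not be ordered there. The level of TFRC per kilobase relative to FTH1 was 0.0663 ± 0.0052 without and 0.331 ± 0.045 with silymarin.

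**Figure D4:**
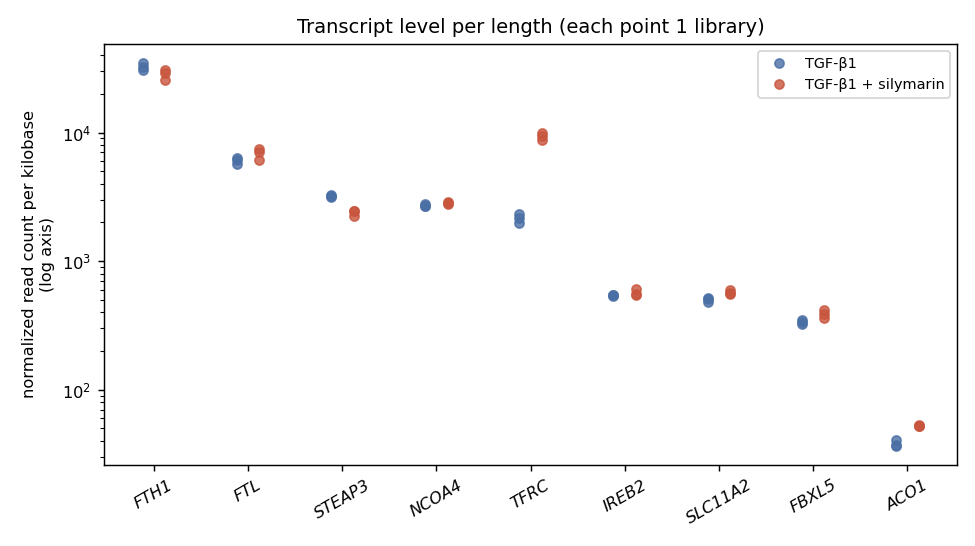
Normalized read count per kilobase of transcript (log axis) of the 9 fitted genes, 1 point per library, TGF-β1 cultures in blue and silymarin cultures in red, ordered by their level in the TGF-β1 group. TFRC goes from the fifth place (mean 2156) to the second (mean 9358), above the FTL row taken without its copies.

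The 4 genes whose profile over the 6 libraries was nearest to that of TFRC, by root mean square difference of log2 values centred on the TGF-β1 mean, were CDH5 (0.0789), ASNS (0.0966), TFPI2 (0.122) and RHOF (0.159), among 13495 genes averaging at least 50. None of them belongs to the iron lists. Centred this way, the measure depends mostly on the size of the difference, and their log2 differences were 2.11 to 2.26. It does not show regulation in common. ASNS, asparagine synthetase, went from a mean of 149.9 to 686 normalized counts, a log2 difference of 2.19 (SE 0.078). CDH5, the VE-cadherin gene, went from 34.1 to 157 (SE of the log2 difference 0.14).

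The wider iron transport and regulation list, without the 10 genes above, held 35 genes of which 22 were fitted; 5 rose, 4 fell and 13 were not called, or 40.9% called beside 34.2% of all fitted genes, and its median log2 difference was 0.0049. HEPHL1, a ferroxidase of the hephaestin family, rose from 38.1 ± 5.01 to 104.9 ± 14.3 normalized counts (log2 difference 1.44, limma adjusted p = 1.2e-05). BMP6, the ligand that tells the liver to make hepcidin, rose from 11.2 ± 2.97 to 45.7 ± 4.6 (1.97, limma adjusted p = 2.9e-05). Both were low in absolute terms. PCBP2, an iron chaperone and RNA-binding protein, rose by a log2 difference of 0.24 (limma adjusted p = 0.0027).

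STEAP4, a metalloreductase related to STEAP3, was the member of that list with the largest fall, from 1242 ± 36.8 to 500 ± 18.8 normalized counts (log2 difference -1.31, limma adjusted p = 3.7e-09). PCBP4 (-0.68) and PROM2 (-0.34), which promotes ferritin export, also fell. Transferrin itself was barely detected: TF averaged 4.87 and 5.94, and TFR2, the second transferrin receptor, 1.28 and 1.08. HAMP (hepcidin) and FTMT (mitochondrial ferritin) were listed at 0 in every library. With any 1 of the TGF-β1 libraries or silymarin replicate 3 left out, 3 genes of this list rose rather than 5.

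Of 23 haem genes listed 20 were fitted; 4 rose, 3 fell and 13 were not called (35.0% called, near the 34.2% of all fitted genes; median 0.045). HMOX1, haem oxygenase 1, which frees iron from haem, had 54.8, 42.6 and 53.6 normalized counts in the TGF-β1 group. It had 141, 136 and 162 in the silymarin group. The groups were well apart, and HMOX1 rose from 50.3 ± 6.73 to 146 ± 13.5 (log2 difference 1.53, limma adjusted p = 2.2e-06). SLC48A1, a haem transporter, rose by 0.36 and CPOX, a synthesis enzyme, by 0.29. The synthesis enzymes ALAD (-0.27) and PPOX (-0.24) and the folate transporter SLC46A1 (-0.25) fell. PPOX was called in 8 of 16 alternatives: library-size scaling, the GC and length correction, edgeR and DESeq2 ended the call, as did leaving out TGF-β1 replicate 2, TGF-β1 replicate 3, silymarin replicate 1 or silymarin replicate 3. With TGF-β1 replicate 3 left out SLC46A1 was not called either, and 1 gene of the list fell.

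In the mitochondria, which take up iron for haem and iron-sulphur clusters, 32 of 33 listed genes were fitted; 6 rose, 2 fell and 24 were not called (25.0% called, beside 34.2% of all fitted genes; median 0.041). ABCB10, an inner membrane transporter tied to iron import, rose by 0.44 on the log2 scale, ISCA1, a cluster assembly factor, by 0.37, and HSPA9, the mitochondrial chaperone that serves the scaffold, by 0.29. ISCU, the scaffold on which clusters are built, fell by 0.28 and MMS19, a targeting factor for cytosolic clusters, by 0.25. Without silymarin replicate 2 the number that fell was 4, where 7183 of 17078 fitted genes were called in all.

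The last of these lists holds the machinery that takes the receptor in and returns it to the surface. Of 31 listed genes 30 were fitted; 5 rose, 3 fell and 22 were not called (26.7% called, beside 34.2% of all fitted genes; median -0.0089). EXOC6, an exocyst subunit known from mice that cannot deliver transferrin iron to red cells, rose by 0.70 on the log2 scale (limma adjusted p = 0.0001). EHD4 (0.18, limma adjusted p = 0.033) and RAB12 (0.17, limma adjusted p = 0.037), which act in endosomal recycling and receptor degradation, were near the threshold. EHD3 (-0.73), MYO5B (-0.36) and the clathrin adaptor subunit AP2B1 (-0.19) fell. With any 1 of the TGF-β1 libraries or silymarin replicate 1 left out 1 gene of this list rose, and with silymarin replicate 3 left out 2 rose. With silymarin replicate 2 left out 6 fell, where 7183 of 17078 fitted genes were called in all.

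**Figure D5:**
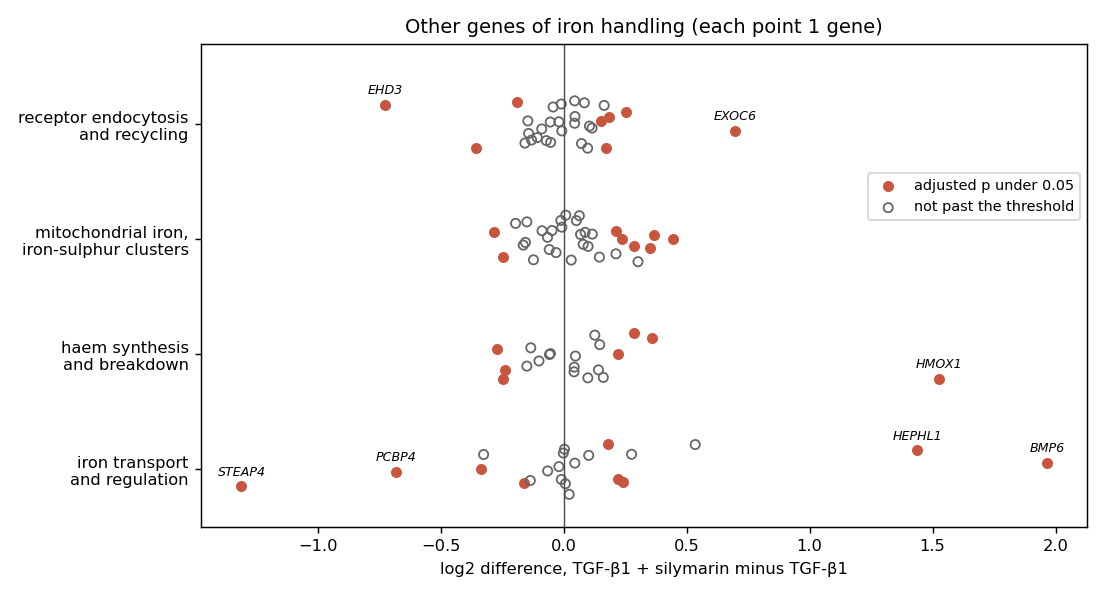
Log2 difference between silymarin and TGF-β1 cultures (horizontal axis) of each fitted gene in 4 wider iron lists, 1 point per gene; filled points have a limma adjusted p under 0.05, open points do not. Most points lie near 0, and BMP6, HMOX1, HEPHL1 and STEAP4 lie beyond 1 in either direction.

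Other mRNAs known to carry an iron-responsive element gave 1 called gene of 5 fitted. EPAS1, which encodes HIF-2α and has its element in the 5′ UTR, rose from 2435 ± 23.4 to 3925 ± 234 normalized counts (log2 difference 0.69, limma adjusted p = 4.2e-07). CDC14A (-0.06, limma adjusted p = 0.62) and CDC42BPA (0.0002, limma adjusted p = 0.998) carry theirs in the 3′ UTR, as TFRC does, and were not called. PFN2 (-0.06, limma adjusted p = 0.87) was not called either. The search above found no match in the transcripts used for EPAS1 and PFN2, which says only that these letters are not in them. ALAS2, the erythroid synthase, averaged 3.79 and 3.52 and was not fitted.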

How the data were processed

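Poly(A) RNA of 6 HaCaT cultures was sequenced from libraries of a stranded mRNA kit, per the labels' protocols. The submitters' processing notes name bcl2fastq 2.18.12, cutadapt 1.15, TopHat2 2.1.1, featureCounts of Subread 1.5.2 and DESeq2; which build, annotation and strand setting were used is not given in the sources used here. Values that the authors deposited are a signal: read counts per gene divided by 1 size factor per library. In every library 100% of values were whole multiples of 1 step (within 1e-06), so reads were recovered; TGF-β1 replicate 3, whose step lies close to 1, was not accepted by the rule used for recovering reads and entered no count model.

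The main test was limma 3.58.1 (R 4.3.3) with a trended prior on log2(value + 1), the group as the only term, and a minimum of 10 in 3 libraries, adjusted by Benjamini-Hochberg over 17296 genes. edgeR 4.0.16 and DESeq2 1.42.0 on the reads of 5 libraries were alternatives, with other scalings, filters, pseudocounts (0.1 and 10), a replicate block, a GC and length correction by splines, and each library left out. Tested on simulated data of 17273 genes, the main test recovered 89 of 100 genes changed 1.5-fold and 100 of 100 changed 2-fold. The changed genes were drawn from those averaging at least 50, and were far fewer than those called in the data. No GC-linked offset and no fold under 1.5 was simulated, so these figures do not speak to the smaller differences above.

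The 10 genes, the wider lists and the tests were chosen with earlier results of these data known. Named are those 10, up to 3 called genes of smallest p per direction and list, HMOX1, EPAS1, CDC14A, CDC42BPA and PFN2, the ferritin copies, and the profiles nearest to TFRC; a few genes that this rule names are not reported here. A further alternative, adding ferritin copies to their parent, was chosen after seeing the data. Positions, transcript lengths and sequences come from GENCODE 29 on GRCh38, joined by gene identifier, or by symbol for NCOA4.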

Additional observations from a re-analysis of the deposited data

How the results depend on the processing

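Under 16 alternative settings TFRC, ACO1 and STEAP3 kept their direction and their call. The difference between groups in the log2 ratio of FTH1 to FTL was computed under the TMM and library-size scalings, the GC and length correction and each library left out, and lay between -0.415 and -0.325 (-0.305 with the ferritin copies added). With each library left out, the TFRC difference ran from 2.06 to 2.17 and the genes called in all from 4278 to 7183, beside 5912 with all libraries, 4675 with edgeR and 3489 with DESeq2 on recovered reads. After GC and length correction 7349 of 16828 fitted genes were called, beside 5912 of 17296 in the main fit. Without silymarin replicate 2 the number was 7183 of 17078. List counts under those settings stand beside these larger shares of all genes, and nothing is read from their rise. Of the 10 genes, the number called higher (4) was 2 with edgeR and 2 with DESeq2, and 2 to 5 with a library left out; the number called lower (2) was 1 with no filter and 1 to 2 with a library left out. In the transport list, genes that rose (5) numbered 3 with a filter of 5 CPM, 3 with edgeR and 3 with DESeq2, and 3 to 7 with a library left out, and those that fell (4) 3 to 6. Among haem genes, those that rose (4) numbered 7 after GC and length correction and 3 to 6 with a library left out; those that fell (3) numbered 1 with edgeR, 1 with DESeq2 and 1 to 4. Among mitochondrial genes, those that rose (6) numbered 9 after GC and length correction and 5 to 8 with a library left out, and those that fell (2) 5 and 2 to 4. Among endocytosis genes, those that rose (5) numbered 8 after GC and length correction, 2 with edgeR, 1 with DESeq2 and 1 to 6 with a library left out, and those that fell (3) 6 and 3 to 6.

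The replicate number as a block called 5678 genes and 3 endocytosis genes that rose. Same-numbered cultures did not deviate together (correlations across genes -0.039, 0.042 and 0.023), and not every culture correlated best with its own number, so the numbers were not taken to pair them.

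Signs turned for CDC42BPA and PFN2, which were never called. CDC42BPA was -0.0023 after GC and length correction and -0.0195 to 0.0217 with a library left out. PFN2 was 0.0960 with edgeR, 0.0812 with DESeq2, and -0.243 to 0.133 with a library left out. The causes were not tested. The median difference of all genes was 0.0044 as fitted, 0.0047 with TMM scaling and 0.0242 with library-size scaling. Depth limits SLC40A1, TF, TFR2, ALAS2, HAMP and FTMT, which lie at or near the floor. In low genes such as BMP6 and PFN2, counting error and the spread between cultures were not separated. For abundant genes the spread between 3 cultures limits precision.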
